A study of Homo sapiens with 6 samples.

Results

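The ZNF genes of chromosome 19 were examined in 6 RNA libraries of the B cell lymphoma lines DOHH2 and DAUDI. Members were the genes of the deposited tables whose symbol is ZNF followed by a number and at most 1 letter, and whose locus lies on chromosome 19 of the hg19 build. The tables listed 251 such genes. A gene counted as expressed at 1 FPKM or more in any library, FPKM being the fragment number scaled by the transcript's length and the library's size. By this rule 192 genes were members, 58 stayed under 1 FPKM in every library, and ZNF587 was left out because an estimate was marked as failed. The members just inside this limit were ZNF571, ZNF626 and ZNF836, with highest values of 1.0, 1.04 and 1.07 FPKM, and the genes just outside were ZNF555, ZNF583 and ZNF565, with 0.994, 0.981 and 0.971 FPKM. In all, 23844 named genes were in the tables and 12337 were tested.

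DOHH2 is a follicular lymphoma line and DAUDI a Burkitt lymphoma line. Each was sequenced as ibrutinib-resistant, idelalisib-resistant and WT cells, with 1 library per group, so that no group had a replicate. Ibrutinib inhibits the kinase BTK and idelalisib the delta isoform of PI3K, 2 enzymes that relay the signal of the B cell receptor. How the resistant cells were derived, and whether they are clones, is not given in the sources used here. In bulk RNA, fewer cells of a type and less RNA per cell cannot be told apart.

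ZNF genes encode proteins with arrays of C2H2 zinc fingers, each of which contacts a few bases of DNA. Many of those on human chromosome 19 also carry a KRAB domain, which recruits TRIM28 (KAP1) and through it the histone methyltransferase SETDB1, HP1 proteins and deacetylases, so that the bound DNA is packed into chromatin marked by H3K9 methylation. Their best known targets are retrotransposons and endogenous retroviruses, and the genes themselves arose by tandem duplication and lie in clusters.

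The libraries labelled WT stood apart from the resistant libraries of their own labelled line, so each difference from WT below holds for the library so labelled. Over 12186 genes with an isoform of 300 nt or more, the correlation of log2(FPKM + 1) between both libraries labelled WT was 0.991. It was 0.992 between the resistant libraries of DOHH2, 0.980 between those of DAUDI and 0.838 to 0.856 between resistant libraries of different lines. Against the library labelled WT of the same line it was only 0.730 to 0.737 in DOHH2 and 0.722 to 0.736 in DAUDI. Over the 192 members the separation was wider: 0.996 between the libraries labelled WT, 0.981 and 0.974 within resistant DOHH2 and DAUDI, 0.646 to 0.657 between the resistant lines, and 0.227 to 0.433 between any resistant library and any labelled WT. These correlations run across genes, which are not independent replicates. All 7 B cell markers were at 1 FPKM or more in every library. Depth could be read only relative to another library, and lay between 0.936 and 1.42 times that of the DAUDI library labelled WT.

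More members were at 1 FPKM or more in the resistant libraries, but the libraries labelled WT had the higher summed level. At 1 FPKM or more were 142 and 132 members in ibrutinib-resistant and idelalisib-resistant DOHH2 cells, 168 and 159 in the same states of DAUDI, and 112 and 107 in the DOHH2 and DAUDI libraries labelled WT. Over the whole tables the numbers were 10315 and 10279 genes in resistant DOHH2, 10647 and 10439 in resistant DAUDI, and 10687 and 10584 in the libraries labelled WT. Under 0.1 FPKM were 22 and 26 members in resistant DOHH2, 10 and 12 in resistant DAUDI, and 67 and 69 in the libraries labelled WT. Over all members the summed FPKM was 680 and 670 in resistant DOHH2, 844 and 738 in resistant DAUDI, and 1193 and 1016 in the libraries labelled WT. Fewer genes therefore carried more of the RNA in the WT libraries. Throughout, resistant values are given for the ibrutinib-resistant and then the idelalisib-resistant library, and WT values for DOHH2 and then DAUDI.

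**Figure D1:**
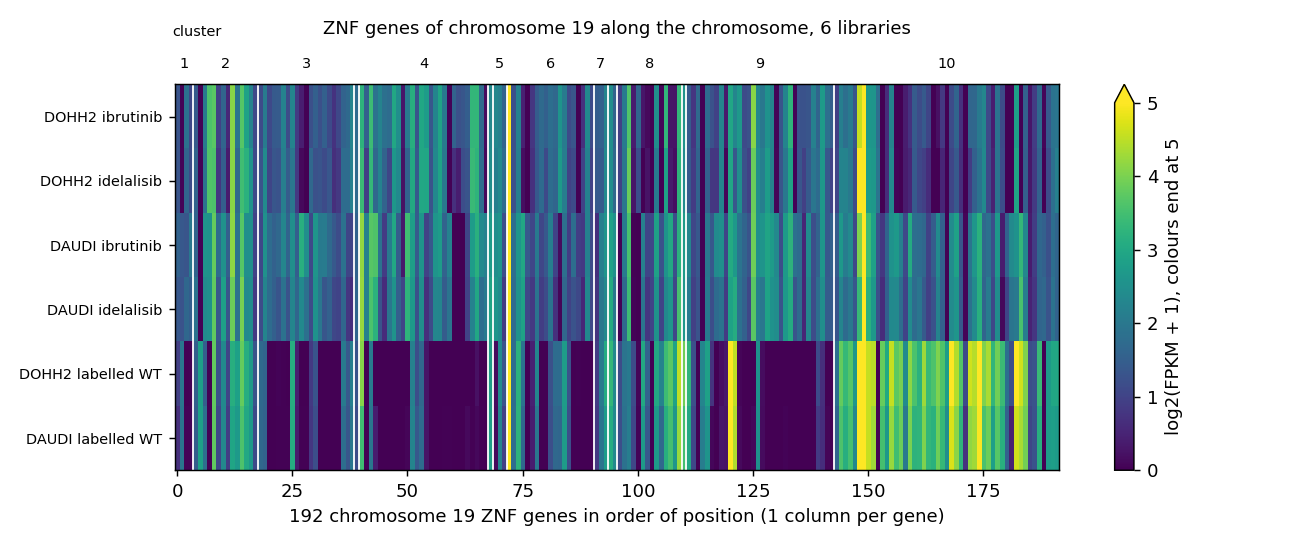
Expression of the 192 members, 1 column per gene in order of position on chromosome 19, in 6 libraries (rows); colour is log2(FPKM + 1), with all values above 5 drawn alike, and white lines part the numbered clusters and the 5 genes outside them. In the libraries labelled WT the columns of clusters 3, 4 and 9 are mostly dark and those of cluster 10 mostly bright, while the resistant libraries are more even.

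Of the 192 members, 187 lay in 10 clusters, defined as runs of at least 3 chromosome 19 ZNF genes with gaps of at most 1 Mb. Clusters 1 to 4 are on the short arm and clusters 5 to 10 on the long arm. The clusters with most members were cluster 10 at 55.99 to 58.99 Mb (49 members of 60 genes), cluster 9 at 52.07 to 54.08 Mb (32 of 42), cluster 4 at 19.78 to 24.31 Mb (28 of 36) and cluster 3 at 11.59 to 12.74 Mb (21 of 27). Clusters 6 (36.67 to 38.27 Mb), 2 (7.07 to 9.88 Mb) and 8 (44.04 to 45.58 Mb) held 19, 14 and 14 members. Clusters 1 (2.82 to 2.94 Mb), 5 (35.17 to 35.45 Mb) and 7 (40.5 to 40.6 Mb) held 4, 3 and 3.

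A gene was called present in a line at 1 FPKM or more in both resistant libraries and absent at under 0.1 FPKM in both. Present in resistant DOHH2 and absent in resistant DAUDI were 2 members, ZNF404 and ZNF730, where this held for 1.43% of all genes tested. Present in resistant DAUDI and absent in resistant DOHH2 were 15 members, or 7.81%, where this held for 3.05% of all genes. Among 211 ZNF genes of other chromosomes the same classes held 0 and 5 genes, and among 710 other genes of chromosome 19 they held 6 and 16. The 75 other genes lying inside the ZNF clusters held 1 and 9, so that the share present in resistant DAUDI and absent in resistant DOHH2 was 12% there, above that of the members. Of these 9, 5 lay in cluster 2, where 0 members fell in this class, and 2 each in clusters 6 and 10. Cluster 10 held 7 of the 15 members. These other genes were set apart by symbol alone, so zinc finger genes with other symbols can be among them. The sequences just upstream of 6 of these genes follow, to show how much their promoters vary in CpG, the dinucleotide that DNA methylation acts on. Each is the 250 bases before the gene's start on its own strand, from RefSeq on GRCh38.p14, with CpG in capitals. Genes were matched by symbol, so this start may differ from that of the isoforms quantified on hg19. The first 4 genes were present in resistant DAUDI and absent in resistant DOHH2, and the last 2 the reverse.
ZNF544 (chr19:58228664-58228913, plus strand): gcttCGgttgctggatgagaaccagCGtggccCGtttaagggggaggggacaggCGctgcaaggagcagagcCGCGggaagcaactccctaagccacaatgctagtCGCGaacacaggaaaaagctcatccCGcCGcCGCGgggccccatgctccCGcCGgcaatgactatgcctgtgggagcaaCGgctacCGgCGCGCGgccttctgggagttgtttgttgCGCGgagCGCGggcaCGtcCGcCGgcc
ZNF543 (chr19:57320222-57320471, plus strand): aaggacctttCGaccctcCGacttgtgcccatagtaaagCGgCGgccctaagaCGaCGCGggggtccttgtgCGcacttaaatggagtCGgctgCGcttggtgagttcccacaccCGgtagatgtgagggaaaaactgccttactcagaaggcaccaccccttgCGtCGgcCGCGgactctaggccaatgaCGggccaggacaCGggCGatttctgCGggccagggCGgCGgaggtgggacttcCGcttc
ZNF320 (chr19:52897695-52897944, minus strand): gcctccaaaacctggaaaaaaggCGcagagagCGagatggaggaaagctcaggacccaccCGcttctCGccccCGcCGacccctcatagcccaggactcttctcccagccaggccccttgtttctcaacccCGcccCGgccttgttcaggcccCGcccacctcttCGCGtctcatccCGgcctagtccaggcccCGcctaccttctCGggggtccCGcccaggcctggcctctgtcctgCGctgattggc
ZNF329 (chr19:58150790-58151039, minus strand): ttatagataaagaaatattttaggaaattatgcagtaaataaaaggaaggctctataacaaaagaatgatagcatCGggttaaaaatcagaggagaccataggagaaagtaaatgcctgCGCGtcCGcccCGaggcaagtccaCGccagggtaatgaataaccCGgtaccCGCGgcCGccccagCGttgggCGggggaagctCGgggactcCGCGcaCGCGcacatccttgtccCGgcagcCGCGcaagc
ZNF404 (chr19:43883965-43884214, minus strand): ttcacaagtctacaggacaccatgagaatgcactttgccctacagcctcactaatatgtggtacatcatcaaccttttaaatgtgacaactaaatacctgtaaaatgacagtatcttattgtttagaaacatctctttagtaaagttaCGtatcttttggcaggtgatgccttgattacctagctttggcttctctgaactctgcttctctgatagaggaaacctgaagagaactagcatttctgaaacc
ZNF730 (chr19:23116775-23117024, plus strand): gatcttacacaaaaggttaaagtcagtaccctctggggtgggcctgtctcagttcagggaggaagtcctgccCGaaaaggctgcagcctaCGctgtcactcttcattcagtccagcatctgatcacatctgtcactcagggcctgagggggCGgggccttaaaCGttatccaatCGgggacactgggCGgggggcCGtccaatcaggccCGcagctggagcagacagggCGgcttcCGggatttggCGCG

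ZNF544, in cluster 10 (chromosome 19, 58740070 to 58775008 in hg19), gave the largest difference between the lines. Its FPKM was 0 (as listed) and 0.00862 in resistant DOHH2, 9.09 and 10.9 in resistant DAUDI, and 24.1 and 19.5 in the libraries labelled WT. The difference of resistant DOHH2 from resistant DAUDI on the log2(FPKM + 1) scale was -3.45 (SE 0.128, 2 libraries each, limma adjusted p = 0.00175). The gene was thus off in both resistant DOHH2 libraries alone, and its groups did not overlap. Its upstream sequence, with 26 CpG in 250 bases, is the richest of the 6 printed.

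ZNF543, also in cluster 10 (57831865 to 57842144), had the same order of levels. It measured 0.0114 and 0.0316 FPKM in resistant DOHH2, 5.56 and 4.08 FPKM in resistant DAUDI, and 12.3 and 10.1 FPKM in the libraries labelled WT. The line difference was -2.50 (SE 0.154, limma adjusted p = 0.00433). Its neighbour ZNF304, a KRAB protein that recruits co-repressors to the INK4-ARF locus in human cancer cells, was listed at 0 in both resistant DOHH2 libraries, against 3.53 and 2.46 FPKM in resistant DAUDI and 14.8 and 13.8 FPKM in the libraries labelled WT (limma adjusted p = 0.00656 between the lines). ZNF543 and ZNF304 followed each other among the members and were the longest run in this class. ZNF549 in the same cluster was at 0.00252 and 0 FPKM in resistant DOHH2, 1.77 and 1.39 in resistant DAUDI, and 11.1 and 8.19 in the libraries labelled WT. In all 3 genes the resistant DAUDI libraries lay between resistant DOHH2 and the libraries labelled WT.

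ZNF606 and ZNF556 differed less between resistant DAUDI and WT. ZNF606, which overlaps the locus LOC100128398, was listed at 0 in both resistant DOHH2 libraries, against 1.97 and 1.07 FPKM in resistant DAUDI and 2.60 and 1.95 FPKM in the libraries labelled WT. ZNF556, in cluster 1, had 0.0210 and 0.0408 FPKM in resistant DOHH2, 1.60 and 1.42 in resistant DAUDI and 2.96 and 2.84 in the libraries labelled WT. ZNF225 of cluster 8 was the last of 7 members present in resistant DAUDI and in both libraries labelled WT but absent in resistant DOHH2, a class of 1.41% of all genes. Its FPKM was 0.0470 and 0.0113 in resistant DOHH2, 1.40 and 1.02 in resistant DAUDI and 3.69 and 2.22 in the libraries labelled WT. Of these 7 genes, 5 lay in cluster 10.

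Another 7 members were present in resistant DAUDI alone, and absent in resistant DOHH2 and both libraries labelled WT, a class that held 1.06% of all genes. They were spread over 6 clusters. ZNF320, in cluster 9 (53379425 to 53394599), led them with 0.0380 and 0.0515 FPKM in resistant DOHH2, 4.11 and 4.47 FPKM in resistant DAUDI and 0.000677 and 0.00552 FPKM in the libraries labelled WT. Its line difference was -2.34 (SE 0.0736, limma adjusted p = 0.00164). ZNF788 in cluster 3 had 0.0166 and 0.00798 FPKM in resistant DOHH2, against 4.55 and 2.62 FPKM in resistant DAUDI, and at most 0.0233 FPKM in a library labelled WT. ZNF43 in cluster 4 had 0.0313 and 0.0163 FPKM in resistant DOHH2, against 3.62 and 2.78 FPKM in resistant DAUDI, and at most 0.0223 FPKM in a library labelled WT. For both genes the 2 resistant DAUDI libraries stood alone above 1 FPKM.

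The other members of that class were lower. ZNF132 had 0.0419 and 0 FPKM in resistant DOHH2 and 1.92 and 2.24 FPKM in resistant DAUDI, and was listed at 0 in both libraries labelled WT. ZNF415 had 0.0284 and 0.0275 FPKM in resistant DOHH2 and 2.60 and 1.48 FPKM in resistant DAUDI, and was also listed at 0 in both libraries labelled WT. ZNF382, a gene often silenced by promoter methylation in human tumours, had 0.0228 and 0 FPKM in resistant DOHH2, 1.64 and 1.08 in resistant DAUDI and 0.0219 and 0.0107 in the libraries labelled WT. ZNF222, named after its values were seen, was listed at 0 in resistant DOHH2 and in both libraries labelled WT, and stood at 1.10 and 1.03 FPKM in resistant DAUDI. Several of these genes were therefore close to the limit of 1 FPKM.

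ZNF329 was the remaining 1 of the 15 members, neither present nor absent in both libraries labelled WT. It was listed at 0 in both resistant DOHH2 libraries and had 4.28 and 2.85 FPKM in resistant DAUDI, against 1.30 and 0.372 FPKM in the libraries labelled WT (limma adjusted p = 0.00759 between the lines). The 2 libraries labelled WT lay between the resistant lines, and its sequence above holds 20 CpG.

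The 2 members present in resistant DOHH2 alone lay in different clusters. ZNF404, in cluster 8 (44376515 to 44384288), had 2.16 and 1.26 FPKM in resistant DOHH2, was listed at 0 in both resistant DAUDI libraries, and had 0.0528 and 0.0343 FPKM in the libraries labelled WT (limma adjusted p = 0.0188 between the lines). ZNF730, in cluster 4 (23299777 to 23330014), had 1.53 and 1.26 FPKM in resistant DOHH2, 0.00658 and 0.00426 in resistant DAUDI, and 0 and 0.000860 in the libraries labelled WT. Its line difference was 1.25 (SE 0.0701, limma adjusted p = 0.00356). ZNF404 has 1 CpG in the 250 bases printed, the lowest of the 6 sequences, and ZNF730 has 12. In the same cluster as ZNF730, both ZNF208 and ZNF257 were under 1 FPKM in idelalisib-resistant DOHH2 and so missed the class. ZNF208 had 2.02 and 0.614 FPKM in resistant DOHH2 and at most 0.00642 FPKM elsewhere, and ZNF257 had 1.37 and 0.313 FPKM in resistant DOHH2 and at most 0.00596 FPKM elsewhere. Neither passed limma between the lines (adjusted p = 0.0914 and 0.153).

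**Figure D2:**
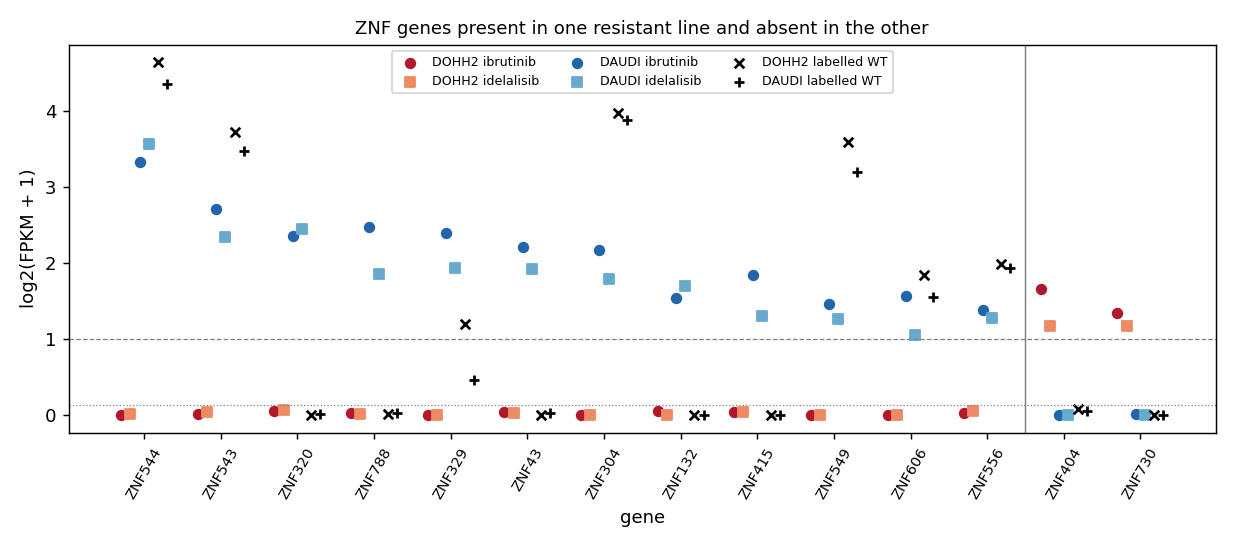
log2(FPKM + 1) of the 12 highest of 15 members present in resistant DAUDI and absent in resistant DOHH2 (left of the vertical line) and of both members with the reverse pattern (right), 1 point per library; the dashed line is 1 FPKM and the dotted line 0.1 FPKM. The libraries labelled WT are above resistant DAUDI for ZNF544, ZNF543, ZNF304 and ZNF549, and at the bottom with resistant DOHH2 for ZNF320, ZNF788, ZNF43, ZNF132 and ZNF415.

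More members were lower than higher in resistant DOHH2 relative to resistant DAUDI. In a limma fit over all genes and the 4 resistant libraries, with line as the only factor, 21 members were higher in resistant DOHH2 (10.9% of members, against 13.1% of all genes) and 55 were lower (28.6% of members, against 14.2% of all genes), each at a Benjamini-Hochberg adjusted p under 0.05. Another 116 did not pass. The median difference was -0.18 over the members and -0.04 over all genes. Among the ZNF genes of other chromosomes 33 were higher and 28 lower, with a median of 0, and among the other genes of chromosome 19 there were 94 higher and 91 lower. The 75 other genes lying inside the ZNF clusters gave 8 higher and 21 lower, with a median of -0.18. Both resistant cultures stand for a line here, so the test measures the spread between cultures selected with different drugs and leaves 2 residual degrees of freedom. Leaving out any resistant library left its line without a repeat and lowered both counts, most of all for a DOHH2 library. With drug as a further term, which pairs the libraries of both lines by drug, 10 were higher and 39 lower. With no filter on low values 7 were higher and 27 lower, and with the libraries labelled WT in the fit none passed in either direction. The shares of all genes in these refits are not given here. A loss of calls over all genes and one particular to the members thus cannot be told apart.

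**Figure D3:**
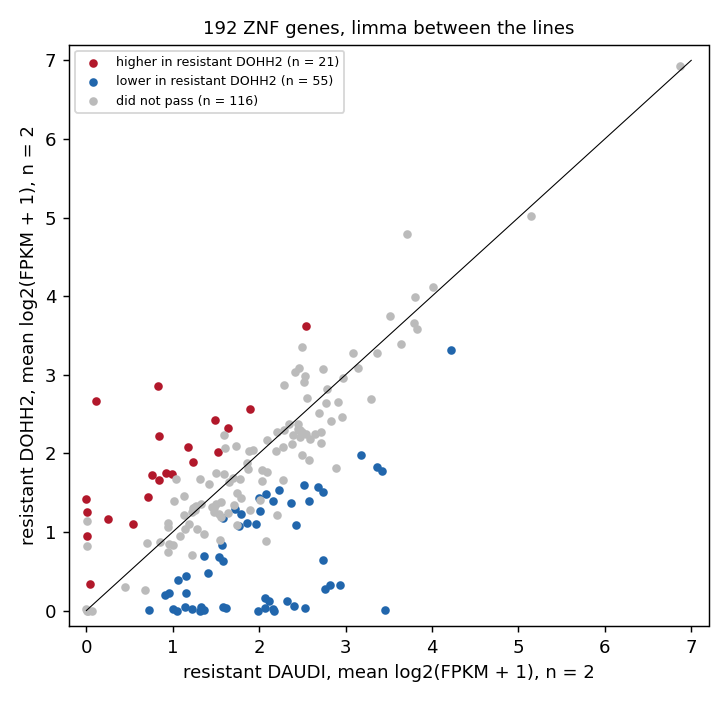
Mean log2(FPKM + 1) of the 192 members in resistant DOHH2 (vertical axis) against resistant DAUDI (horizontal axis), 2 libraries each, with the line of equality. Red points (21) were higher and blue points (55) lower in resistant DOHH2 by limma, and grey points (116) did not pass; a row of blue points along the bottom marks members that were off in resistant DOHH2.

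On the short arm, cluster 4 was balanced between the lines, with 5 members higher and 5 lower in resistant DOHH2 and a median difference of 0.12. ZNF708 had 5.75 and 6.79 FPKM in resistant DOHH2, against 0.981 and 0.587 FPKM in resistant DAUDI (difference 2.03, SE 0.173, limma adjusted p = 0.00798). ZNF90 had 2.61 and 2.02 FPKM in resistant DOHH2, against 0.847 and 0.552 FPKM in resistant DAUDI. In the other direction ZNF254 had 0.101 and 0.0816 FPKM in resistant DOHH2, against 3.59 and 3.09 FPKM in resistant DAUDI (difference -1.99, SE 0.0854, limma adjusted p = 0.00213). ZNF253 had 2.69 and 2.19 FPKM in resistant DOHH2, against 11.3 and 8.30 FPKM in resistant DAUDI. Genes of opposite direction thus lay in the same cluster.

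Cluster 3 gave 2 members higher and 6 lower in resistant DOHH2. ZNF844 had 0.336 and 0.0870 FPKM in resistant DOHH2, against 7.88 and 4.21 FPKM in resistant DAUDI (difference -2.50, SE 0.321, limma adjusted p = 0.0180). ZNF136 had 1.91 and 1.37 FPKM in resistant DOHH2, against 5.12 and 4.82 FPKM in resistant DAUDI. At the far end of the cluster the neighbours ZNF490 and ZNF791, which were the longest run of members higher in resistant DOHH2, went the other way. ZNF791 had 3.78 and 3.51 FPKM in resistant DOHH2, against 1.04 and 0.574 FPKM in resistant DAUDI (difference 1.37, limma adjusted p = 0.0161). In cluster 2 the member higher in resistant DOHH2 was ZNF558, a KRAB repressor of the mitophagy gene SPATA18 in human cells, with 11.2 and 11.4 FPKM in resistant DOHH2, against 4.95 and 4.68 FPKM in resistant DAUDI (difference 1.08, limma adjusted p = 0.0126). Its 2 lower members were ZNF559 and ZNF177, which share a readthrough transcript in the annotation, so that their reads may have been split between them.

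On the long arm, cluster 6 held the largest differences outside cluster 10, in both directions. ZNF529 had 0.370 and 0.143 FPKM in resistant DOHH2, against 6.99 and 6.32 FPKM in resistant DAUDI (difference -2.61, SE 0.139, limma adjusted p = 0.00320). ZNF585B had 5.04 and 5.61 FPKM in resistant DOHH2, against 0.110 and 0.0530 FPKM in resistant DAUDI (difference 2.55, SE 0.0915, limma adjusted p = 0.00175). Its close copy ZNF585A had 2.22 and 2.09 FPKM in resistant DOHH2, against 1.0 and 0.610 FPKM in resistant DAUDI. The division of reads between ZNF585A and ZNF585B is uncertain. Over the cluster 3 members were higher and 5 lower in resistant DOHH2.

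In cluster 8, 3 members were higher and 6 lower in resistant DOHH2. ZNF227 had 0.209 and 0.292 FPKM in resistant DOHH2, 7.09 and 5.17 FPKM in resistant DAUDI, and 12.2 and 10.3 FPKM in the libraries labelled WT (line difference -2.50, SE 0.172, limma adjusted p = 0.00537). ZNF45 had 0.239 and 0 FPKM in resistant DOHH2, 3.57 and 2.82 FPKM in resistant DAUDI, and 7.07 and 5.64 FPKM in the libraries labelled WT. Higher in resistant DOHH2 besides ZNF404 was ZNF575, with 0.916 and 0.945 FPKM in resistant DOHH2 and 0 and 0.0180 FPKM in resistant DAUDI. Cluster 9 gave 3 members higher and 7 lower. In it ZNF525 had 3.56 and 2.90 FPKM in resistant DOHH2, against 1.30 and 1.24 FPKM in resistant DAUDI, and ZNF845 had 1.48 and 1.68 FPKM in resistant DOHH2, against 4.42 and 3.93 FPKM in resistant DAUDI. Cluster 7 gave 1 in each direction, ZNF546 higher and ZNF780B lower.

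Cluster 10 held 22 of the 55 members that were lower in resistant DOHH2, with 3 higher and a median difference of -0.59. With clusters parted at gaps of 0.5 Mb, the part at 57.70 to 58.99 Mb held 39 members, of which 22 were lower and 2 higher (median difference -0.70), and the part at 55.99 to 57.18 Mb held 10 members, of which 1, ZNF71, passed and was higher. In the distal part 4 neighbours, ZNF543 to ZNF548 at 57.83 to 57.91 Mb, were all lower. ZNF548, the last of them, had 0.658 and 0.477 FPKM in resistant DOHH2, against 7.38 and 4.30 FPKM in resistant DAUDI. ZNF550 had 0.168 and 0.00899 FPKM in resistant DOHH2, against 4.33 and 3.70 FPKM in resistant DAUDI (difference -2.21, SE 0.122, limma adjusted p = 0.00346). The exceptions were ZNF256, with 1.20 and 1.26 FPKM in resistant DOHH2 and 0.304 and 0.0805 FPKM in resistant DAUDI, and ZNF552, with 3.90 and 4.15 FPKM in resistant DOHH2 and 2.21 and 2.04 FPKM in resistant DAUDI. Of the 17 other genes tested in cluster 10, 5 were higher and 5 lower.

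Markers of other cell types moved with the line as well. Of 6 myeloid markers, 1 was at 1 FPKM or more in resistant DOHH2 and 4 in resistant DAUDI. Their summed level was 2.01 to 3.13 FPKM in resistant DOHH2, against 21.3 to 24.2 FPKM in resistant DAUDI, with MPO at 0 in all 4 and CD14 at no more than 0.103 FPKM. Lower in resistant DOHH2 by limma were LYZ, with 0.0459 and 0.111 FPKM in resistant DOHH2 against 13.0 and 15.0 FPKM in resistant DAUDI, CSF1R, listed at 0 in resistant DOHH2 against 2.20 and 5.73 FPKM in resistant DAUDI, and ITGAM, with 0.0130 and 0.0562 FPKM in resistant DOHH2 against 1.81 and 1.31 FPKM in resistant DAUDI. Their part in the differences between the lines was not tested. Of 6 T and NK cell markers 1 was at 1 FPKM or more in each resistant library, but it differed by line. CD3E had 2.55 and 1.32 FPKM in resistant DOHH2 against 0.365 and 0.166 FPKM in resistant DAUDI, and was higher by limma. NKG7 had 0.0501 and 0.0494 FPKM in resistant DOHH2 against 1.51 and 1.31 FPKM in resistant DAUDI, and was lower. Of 6 stromal and epithelial markers 0 were at 1 FPKM or more in resistant DOHH2 and 1, PECAM1, in resistant DAUDI. The part of these markers was not tested either.

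Against the libraries labelled WT many members differed in each line, in both directions. With 1 library per group there is no test, and a member was counted where both resistant libraries of a line differed from its library labelled WT by at least 1 on the log2(FPKM + 1) scale in the same direction. In DOHH2 55 members were higher and 57 lower (28.6% and 29.7%), where 13.4% and 14.6% of all genes were. In DAUDI 67 members were higher and 40 lower (34.9% and 20.8%), where 13.7% and 13.2% of all genes were. Across the lines 48 members (25%) were higher in all 4 resistant libraries, where 6.91% of all genes were. Lower in all 4 were 36 members (18.8%), where 8.75% of all genes were. Another 17 (8.85%) were higher in DAUDI alone and 7 (3.65%) in DOHH2 alone, where 6.14% and 6.20% of all genes were. Lower in DOHH2 alone were 19 (9.90%) and in DAUDI alone 4 (2.08%), where 5.24% and 4.19% of all genes were. ZNF529 and ZNF329 (2 members, 1.04%) went opposite ways, as did 0.908% of all genes. Counted in neither line were 59 members (30.7%), where 61.7% of all genes were. The summed level of the myeloid markers differed as well, at 2.01 to 3.13 FPKM in resistant DOHH2, 21.3 to 24.2 FPKM in resistant DAUDI and 16.3 to 19.2 FPKM in the libraries labelled WT, with CD14 at no more than 0.103 FPKM. In the libraries labelled WT nearly all of this was CD68 (18.7 and 16.1 FPKM), which was lower in all 4 resistant libraries (3.07 and 1.84 FPKM in resistant DOHH2, 4.29 and 2.09 FPKM in resistant DAUDI), whereas LYZ, CSF1R and ITGAM were higher in resistant DAUDI than in its library labelled WT. The part of these markers in the differences was not tested. The median over all members was near 0 in DOHH2 (0.00 for both drugs) and 0.20 and 0.13 in DAUDI, so that the members were spread to both sides. With a pseudocount of 5 in place of 1, which weighs low genes less, 9 members were higher and 40 lower in DOHH2. In DAUDI 8 were higher and 22 lower. Of 12337 genes tested, 754 were then higher and 926 lower in DOHH2, and 744 higher and 855 lower in DAUDI. Higher genes thus made up 18.4% of the members counted in DOHH2 and 26.7% in DAUDI, against 44.9% and 46.5% of all genes counted. The ZNF genes of other chromosomes had 39 higher and 20 lower in DOHH2, and 37 higher and 12 lower in DAUDI. The share of lower genes among the other genes of chromosome 19 was 21.1% in DOHH2 and 20.7% in DAUDI, and among the other genes inside the clusters 29.3% in DOHH2 and 25.3% in DAUDI, which is near that of the members. The shares of higher genes were 11.3% in both lines among the other genes of chromosome 19, and 14.7% in DOHH2 and 24% in DAUDI inside the clusters.

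The directions differed by position. In cluster 4 there were 19 members higher and 0 lower in DOHH2, and 17 higher and 0 lower in DAUDI. Cluster 3 had 8 higher and 0 lower in DOHH2 and 13 higher and 0 lower in DAUDI, and cluster 9 had 17 higher and 5 lower in DOHH2 and 22 higher and 3 lower in DAUDI. Cluster 10 had 1 higher and 42 lower in DOHH2 and 3 higher and 32 lower in DAUDI. Cluster 8 was also on the lower side, with 2 higher and 6 lower in DOHH2 and 2 higher and 3 lower in DAUDI, while clusters 2, 6 and 7 together had 5 higher and 2 lower in DOHH2 and 7 higher and 2 lower in DAUDI. Of the 48 members higher in all 4 resistant libraries, 17 lay in cluster 9, 14 in cluster 4 and 8 in cluster 3, and of the 36 lower in all 4, 31 lay in cluster 10.

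**Figure D4:**
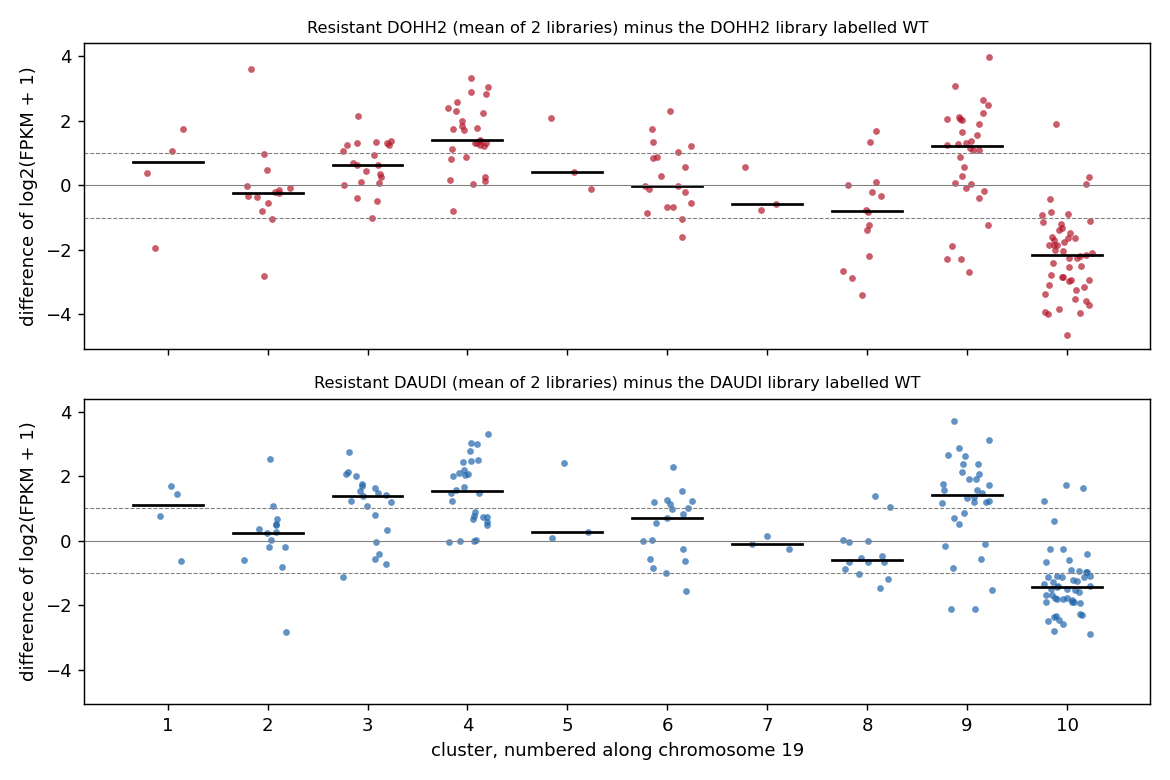
Difference of log2(FPKM + 1) of each clustered member, as the mean of 2 resistant libraries minus the library labelled WT of the same line, by cluster along chromosome 19, for DOHH2 (top) and DAUDI (bottom); black bars are cluster medians and dashed lines the limits of 1 and -1. Clusters 3, 4 and 9 have medians above 0 in both lines and cluster 10 below 0.

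A class of 40 members was present in all 4 resistant libraries and absent in both labelled WT, which is 20.8% of the members, where 1.1% of all genes fell in this class. It held 4 ZNF genes of other chromosomes (1.90%) and 13 other genes of chromosome 19 (1.83%). Of the 40, 14 were in cluster 9, 11 in cluster 4 and 8 in cluster 3. ZNF83 in cluster 9 was the highest of them, with 16.2 and 13.6 FPKM in resistant DOHH2, 13.8 and 12.2 FPKM in resistant DAUDI and 0.00387 and 0.0565 FPKM in the libraries labelled WT. The 4 resistant libraries lay close together, and its line difference did not pass (limma adjusted p = 0.405). The differences of ZNF83 from WT were 4.10 and 3.86 in DOHH2 and 3.81 and 3.64 in DAUDI.

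ZNF91, which represses SVA retrotransposons in human cells, had 8.88 and 9.52 FPKM in resistant DOHH2, 5.75 and 3.68 FPKM in resistant DAUDI and 0.00543 and 0.0150 FPKM in the libraries labelled WT. ZNF93, a repressor of LINE-1 elements named after its values were seen, had 3.73 and 3.68 FPKM in resistant DOHH2, 2.74 and 1.44 FPKM in resistant DAUDI and 0 and 0.00850 FPKM in the libraries labelled WT. Both lie in cluster 4, and were under 0.1 FPKM in both libraries labelled WT. ZNF85 of the same cluster had 3.25 and 1.97 FPKM in resistant DOHH2, 10.1 and 8.58 FPKM in resistant DAUDI and 0 and 0.0419 FPKM in the libraries labelled WT. ZNF429 had 6.59 and 6.47 FPKM in resistant DOHH2 and 5.79 and 3.83 FPKM in resistant DAUDI, and was listed at 0 in both libraries labelled WT. The pseudogene ZNF826P had 6.97 and 5.27 FPKM in resistant DOHH2 and 7.04 and 4.94 FPKM in resistant DAUDI, and was also listed at 0 in both.

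ZNF675, known as an inhibitor of TRAF6 signalling, was slightly above the absence limit in 1 library labelled WT and so fell outside the class. It had 8.91 and 8.47 FPKM in resistant DOHH2, 8.01 and 7.04 FPKM in resistant DAUDI and 0.165 and 0.0744 FPKM in the libraries labelled WT. In cluster 9, ZNF160 had 8.56 and 6.55 FPKM in resistant DOHH2, 8.36 and 7.41 FPKM in resistant DAUDI and 0 and 0.00689 FPKM in the libraries labelled WT. ZNF28 of the same cluster had 4.88 and 5.78 FPKM in resistant DOHH2, 6.56 and 6.44 FPKM in resistant DAUDI and 0 and 0.0130 FPKM in the libraries labelled WT. ZNF816, which overlaps a readthrough transcript with ZNF321P, had 3.80 and 3.02 FPKM in resistant DOHH2, 5.57 and 5.56 FPKM in resistant DAUDI and 0 and 0.0407 FPKM in the libraries labelled WT. ZNF558 of cluster 2 was listed at 0 in both libraries labelled WT. Lower members of the class in cluster 9, named after their values were seen, were ZNF350, a partner of BRCA1, with 2.33 and 2.04 FPKM in resistant DOHH2 and 1.58 and 1.41 FPKM in resistant DAUDI, and the imprinted gene ZNF331, with 1.81 and 1.02 FPKM in resistant DOHH2 and 1.89 and 1.70 FPKM in resistant DAUDI. Both were listed at 0 in the libraries labelled WT.

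The medians of clusters 4 and 9 were far lower in the libraries labelled WT. In cluster 4 the median FPKM over members was 2.89 and 2.33 in resistant DOHH2, 3.60 and 2.83 in resistant DAUDI, and 0 and 0.0139 in the libraries labelled WT. In cluster 9 it was 2.19 and 1.65 in resistant DOHH2, 2.88 and 2.57 in resistant DAUDI, and 0.00693 and 0.0417 in the libraries labelled WT. The summed FPKM of cluster 9 differed less, at 97.6 and 86.4 in resistant DOHH2, 117 and 104 in resistant DAUDI, and 86.7 and 76.7 in the libraries labelled WT. In cluster 3 the median was 1.33 and 1.47 in resistant DOHH2, 2.32 and 1.95 in resistant DAUDI, and 0.0142 and 0.0194 in the libraries labelled WT. Absent in both libraries labelled WT were 20 of 28 members of cluster 4, 19 of 32 of cluster 9 and 12 of 21 of cluster 3, but 2 of 49 of cluster 10. The longest unbroken runs were 7 neighbours higher in resistant DOHH2 than in its library labelled WT (ZNF506 to ZNF737, 19.90 to 20.75 Mb) and 9 neighbours higher in resistant DAUDI (ZNF600 to ZNF347, 53.27 to 53.66 Mb). The blocks were not unbroken everywhere. ZNF101, at the edge of cluster 4, had 8.34 and 9.66 FPKM in resistant DOHH2, 17.3 and 17.9 FPKM in resistant DAUDI and 16.1 and 10.1 FPKM in the libraries labelled WT, and so was expressed in all 6. ZNF766 in cluster 9, which overlaps the microRNA gene MIR643, had 6.79 and 6.82 FPKM in resistant DOHH2, 7.35 and 6.39 FPKM in resistant DAUDI and 36.8 and 32.9 FPKM in the libraries labelled WT.

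Cluster 10 was the reverse. Its median member had 1.24 and 1.10 FPKM in resistant DOHH2, 2.49 and 2.39 FPKM in resistant DAUDI and 11.7 and 9.19 FPKM in the libraries labelled WT. In DOHH2 32 neighbouring members in a row, from ZNF264 to ZNF8 at 57.70 to 58.81 Mb, were lower in both resistant libraries by at least 1. In DAUDI the longest such run was 11 members, from ZNF17 to ZNF551 at 57.92 to 58.20 Mb. ZNF134 in this stretch had 1.20 and 1.06 FPKM in resistant DOHH2, 4.36 and 4.36 FPKM in resistant DAUDI and 32.0 and 25.4 FPKM in the libraries labelled WT. ZNF264 at its start was at 0 and 0.000588 FPKM in resistant DOHH2, 0.754 and 0.554 FPKM in resistant DAUDI and 13.4 and 10.5 FPKM in the libraries labelled WT. Both genes were lowest in resistant DOHH2 and highest in the libraries labelled WT.

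ZNF274, which binds the 3′ ends of other ZNF genes and recruits TRIM28 and SETDB1 to them, was part of the same stretch. It had 5.94 and 6.67 FPKM in resistant DOHH2, 4.88 and 3.06 FPKM in resistant DAUDI and 31.9 and 23.8 FPKM in the libraries labelled WT. Between the lines ZNF274 did not pass (difference 0.58, limma adjusted p = 0.165). ZNF419 had 1.67 and 0.940 FPKM in resistant DOHH2, 2.18 and 1.71 FPKM in resistant DAUDI and 18.2 and 15.4 FPKM in the libraries labelled WT. ZNF773 had 1.07 and 0.559 FPKM in resistant DOHH2, 0.946 and 0.930 FPKM in resistant DAUDI and 9.49 and 8.95 FPKM in the libraries labelled WT. At the proximal end ZNF580 had 22.7 and 31.1 FPKM in resistant DOHH2, 15.5 and 9.36 FPKM in resistant DAUDI and 81.9 and 77.0 FPKM in the libraries labelled WT. The other genes in the cluster were also lower more often than higher, with 2 of 17 higher and 9 lower in DOHH2 and 3 higher and 8 lower in DAUDI.

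Absent in all 4 resistant libraries and present in both labelled WT were 3 members (1.56%), where 3.07% of all genes fell in this class. ZNF358 of cluster 2 had 0.0171 and 0.0165 FPKM in resistant DOHH2, was listed at 0 in both resistant DAUDI libraries, and had 6.07 and 6.14 FPKM in the libraries labelled WT. ZNF530 of cluster 10 was listed at 0 in 3 resistant libraries and at 0.00969 FPKM in idelalisib-resistant DAUDI, against 5.84 and 4.51 FPKM in the libraries labelled WT. ZNF615 of cluster 9, named after its values were seen, was likewise listed at 0 in 3 resistant libraries and at 0.0207 FPKM in the other, against 3.86 and 3.36 FPKM in the libraries labelled WT. In all, 67 members (34.9%) were present in all 6 libraries, where 71.3% of all genes were.

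Ibrutinib-resistant and idelalisib-resistant cells of a line were close in the members. No member differed by 1 or more between ibrutinib-resistant and idelalisib-resistant cells in either line, where 1.08% of all genes did in DOHH2 and 3.5% in DAUDI. The largest difference in DOHH2 was 0.92 for ZNF480, with 3.85 FPKM in ibrutinib-resistant and 1.56 FPKM in idelalisib-resistant cells, and the lowest was -0.47 for ZNF20, with 1.33 FPKM in ibrutinib-resistant and 2.22 FPKM in idelalisib-resistant cells. In DAUDI the largest was 0.77 for ZNF844 and the lowest -0.71 for ZNF626, with 0.248 FPKM in ibrutinib-resistant and 1.04 FPKM in idelalisib-resistant cells. ZNF480 went the other way in DAUDI, with 5.43 FPKM in ibrutinib-resistant and 7.50 FPKM in idelalisib-resistant cells (-0.40). ZNF580 also had opposite signs, -0.44 in DOHH2 and 0.67 in DAUDI. The median difference was 0.03 over the members in DOHH2 and 0.14 in DAUDI, the same as the 0.14 over all genes in DAUDI, where the relative depth was 1.42 in the ibrutinib-resistant and 1.04 in the idelalisib-resistant library. With 1 library each these differences have no replicate check. At a pseudocount of 0.1 the members differing by 1 or more numbered 9 in DOHH2 and 3 in DAUDI, and the share of all genes at that setting is not given here. The median member had 1.91 and 1.65 FPKM in resistant DOHH2 and 2.63 and 2.39 FPKM in resistant DAUDI. Over all genes tested the median was 7.31 and 7.53 FPKM in resistant DOHH2 and 8.15 and 7.26 FPKM in resistant DAUDI. The log2(FPKM + 1) scale understates differences of low genes.

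No member differed by 1 or more between the DOHH2 and DAUDI libraries labelled WT, where 1.09% of all genes did. At a pseudocount of 0.1, 3 members did, and the share of all genes at that setting is not given here. The largest differences were 0.75 for ZNF329 and 0.67 for ZNF432, with 0.687 FPKM in the DOHH2 and 0.0588 FPKM in the DAUDI library labelled WT, and the lowest was -0.38 for ZNF253, with 0 FPKM in the DOHH2 and 0.298 FPKM in the DAUDI library labelled WT. Between resistant DOHH2 and resistant DAUDI, 39 to 44 members differed by 1 or more per pair of libraries (20.3% to 22.9%). This is close to the 18.7% to 22% of all genes tested. Each resistant library differed from a library labelled WT in 113 to 125 members (58.9% to 65.1%), where 30% to 35% of all genes tested did.

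Some of the members at 5 FPKM or more in every library varied less than the rest of them. ZNF317 of cluster 2 varied least among those at 5 FPKM or more in all libraries, with 12.2 and 11.1 FPKM in resistant DOHH2, 13.1 and 12.6 FPKM in resistant DAUDI and 12.8 and 12.7 FPKM in the libraries labelled WT (range 0.22 on the log2 scale). ZNF121, also in cluster 2, had 11.8 and 10.1 FPKM in resistant DOHH2, 11.8 and 14.7 FPKM in resistant DAUDI and 13.1 and 11.1 FPKM in the libraries labelled WT. ZNF581 of cluster 10 had the highest level of any member, with 117 and 126 FPKM in resistant DOHH2, 120.2 and 112 FPKM in resistant DAUDI and 101 and 75.9 FPKM in the libraries labelled WT. Its range over the libraries was 0.73 on the log2 scale, against 3.0 for its neighbour ZNF580. ZNF146, a protein made of zinc fingers without a KRAB domain, had 32.0 and 30.9 FPKM in resistant DOHH2, 39.3 and 30.3 FPKM in resistant DAUDI and 50.9 and 52.0 FPKM in the libraries labelled WT. It overlaps ZNF565, and reads of the overlap may be shared. The 5 members outside any cluster, ZNF333, ZNF473, ZNF507, ZNF526 and ZNF574, were at 1 FPKM or more in all 6 libraries.

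The genes of the KRAB co-repressor machinery were expressed in every library. Between the lines 13.1% of all genes were higher and 14.2% lower in resistant DOHH2 by limma, with a median difference of -0.04. Of 18 co-repressor and H3K9 methylation genes tested, 2 were higher, near that share, and 0 lower, with a median of 0.29. These were the deacetylase genes HDAC1, with 114 and 108 FPKM in resistant DOHH2 against 57.7 and 48.0 FPKM in resistant DAUDI, and HDAC2, with 19.3 and 21.4 FPKM in resistant DOHH2 against 8.42 and 8.42 FPKM in resistant DAUDI. TRIM28 had 86.3 and 88.3 FPKM in resistant DOHH2, 79.3 and 95.2 FPKM in resistant DAUDI and 312 and 304 FPKM in the libraries labelled WT, so that it was lower by 1.67 to 1.93 in all 4 resistant libraries. It lies on chromosome 19 just beyond the end of cluster 10. SETDB1 had 12.1 and 10.4 FPKM in resistant DOHH2, 16.4 and 16.1 FPKM in resistant DAUDI and 10.7 and 11.7 FPKM in the libraries labelled WT. All 18 genes were at 1 FPKM or more in every library.

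Of 10 DNA methylation genes tested, 4 were higher and 1 was lower in resistant DOHH2, with a median difference of 0.27 over the list, where 13.1% of all genes were higher and 14.2% lower. TET1, which starts the removal of DNA methylation, had 1.78 and 2.16 FPKM in resistant DOHH2, against 0.00825 and 0.0113 FPKM in resistant DAUDI (difference 1.55, SE 0.0812). Its relative TET2 had 2.11 and 1.76 FPKM in resistant DOHH2, 0.0124 and 0.00293 FPKM in resistant DAUDI and 11.5 and 12.7 FPKM in the libraries labelled WT. UHRF1, which guides maintenance methylation, had 9.33 and 6.94 FPKM in resistant DOHH2, against 2.73 and 2.91 FPKM in resistant DAUDI. The de novo methyltransferase gene DNMT3B was the lower one, with 0.757 and 1.14 FPKM in resistant DOHH2, against 4.26 and 3.54 FPKM in resistant DAUDI (difference -1.33, SE 0.158). DNMT3A, the fourth that was higher, had 0.686 and 0.729 FPKM in resistant DOHH2, 0.314 and 0.260 FPKM in resistant DAUDI and 9.45 and 9.10 FPKM in the libraries labelled WT.

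Of 10 endogenous retroviral genes listed, the kind of sequence that KRAB proteins bind, 6 were in the tables and 2 passed 1 FPKM. ERV3-1 was higher in resistant DOHH2, with 6.92 and 8.40 FPKM, against 3.91 and 2.92 FPKM in resistant DAUDI and 1.70 and 2.02 FPKM in the libraries labelled WT. ERVK13-1 had 1.39 and 1.02 FPKM in resistant DOHH2, 1.11 and 1.65 FPKM in resistant DAUDI and 0.762 and 0.710 FPKM in the libraries labelled WT, and did not pass between the lines.

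The classes of members were set beside their promoter sequence, in windows of 300 bases (250 before to 50 after the start) that RefSeq on GRCh38.p14 gives for 173 of the 192 members. The median number of CpG was 20 in all members matched, 20 in the 14 matched members present in resistant DAUDI and absent in resistant DOHH2, 17 in the 36 of the class present in all 4 resistant libraries and absent in both labelled WT, and 22 in the 59 present in all 6. It was 25 in the ZNF genes of other chromosomes, 26 in the other genes of chromosome 19 tested and 14 in all 27305 RefSeq promoters. The letters CCGGAAGT or their reverse complement ACTTCCGG, a motif of ETS factors, occurred in 38 of the 173 windows (22.0%), against 15.8% for the ZNF genes of other chromosomes, 7.27% for the other genes of chromosome 19 and 4.44% of all promoters. By class it occurred in 1 of the 36 windows of genes present in all 4 resistant libraries and absent in both labelled WT (2.78%), and in 16 of the 59 windows of genes present in all 6 (27.1%). Of the 14 windows of genes present in resistant DAUDI and absent in resistant DOHH2, 3 held it. The classes also differ by cluster. Of the 40 members present in all 4 resistant libraries and absent in both labelled WT, 1 lay in cluster 10. For the 67 present in all 6 libraries it was 24. The CpG and motif counts here were not split by cluster. A match is a description of these letters in this window and not a bound site.

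The E-box CACGTG, which reads the same on both strands, occurred in 6 of the 173 member windows (3.47%), against 7.43% of all promoters. The NRF1 motif, searched as 1 palindrome of the consensus, occurred in 3 windows (1.73%, against 1.36% of all promoters). The YY1 motif AAGATGGCG or CGCCATCTT occurred in 7 (4.05%, against 1.85% of all promoters). Among the other genes of chromosome 19 tested, the shares were 11.3% for the E-box, 3.27% for NRF1 and 7.09% for YY1. Among the ZNF genes of other chromosomes they were 7.02%, 3.51% and 2.34%. In the 36 windows of members present in all 4 resistant libraries and absent in both labelled WT none of the E-box, NRF1 and YY1 motifs was found. Among the 59 windows of members present in all 6 libraries the E-box occurred in 5, YY1 in 5 and NRF1 in 1.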

How the data were processed

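PolyA RNA of 6 cultures was sequenced, 1 library per group, with a kit that keeps the strand, per the labels' protocols; the strand setting of the counting is not given in the sources used here. Reads were handled with bcl2fastq, cutadapt, TopHat2 and Cufflinks on hg19, per the submitters' processing notes, with no versions given. The authors deposited, per library, FPKM for 43490 isoforms, scaled to transcript length and mapped fragments, and a coverage signal per isoform, which per the file headers accompanies the FPKM and served here only to read relative depth. Without counts no interval or floor can be given, and absolute depth is unknown.

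Isoform FPKM were added up per gene symbol (528 isoforms without a name and 10 genes with a failed estimate were left out). Genes at 1 FPKM or more in any library were kept (12337) and log2(FPKM + 1) taken, a scale that understates differences of low genes. Resistant DOHH2 was compared with resistant DAUDI by limma 3.58.1 in R 4.3.3 (empirical Bayes with trend, 2 residual and 1.53 prior degrees of freedom, two-sided, Benjamini-Hochberg over all genes, adjusted p under 0.05); the fit was tested on simulated data. The p-values measure the spread between these cultures. Comparisons with 1 library a group have no test and count differences of at least 1. Of the members, 61 have more than 1 isoform and 19 overlap another gene, and reads of near copies (ZNF585A and ZNF585B, ZNF780A and ZNF780B, ZNF324 and ZNF324B, ZNF587B and ZNF417) may be split between them.

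The members and gene lists were chosen with earlier results of these data known. Named members were up to 12 per direction present in one resistant line and absent in the other, up to 3 per cluster and direction past limma, up to 8 per line and direction against the library labelled WT, up to 3 per line and direction between the drugs, up to 4 per direction between the libraries labelled WT, the 8 of highest mean and the 8 of smallest range at 5 FPKM or more, and up to 4 genes per list. Of these some are left out of the text. Genes at a boundary, ends of runs, members outside clusters, TRIM28, SETDB1 and DNMT3A were named outside this rule. The classes that join both lines with the libraries labelled WT were added after seeing the data. Promoter sequences are from RefSeq (GRCh38.p14), matched by symbol, and coordinates of genes are from the deposited tables (hg19). Alternatives were pseudocounts of 0.1 and 5, 2 rescalings of the libraries, a 2-library filter and no filter, the highest isoform in place of the sum, other terms in limma, other limits of presence and absence, gaps of 0.5 and 2 Mb between clusters, and leaving out each library.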

Additional observations from a re-analysis of the deposited data

Results flagged for a closer look

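For 2 members every resistant library of one line lay on the opposite side of its library labelled WT from every resistant library of the other line, by at least 1 on the log2(FPKM + 1) scale. Of all genes 112 (0.908%) did the same, near the share of 1.04% among the members. The difference between the lines in this respect was not tested, since each line has 1 library labelled WT. The mean difference of ZNF529 over 2 resistant libraries was -1.59 in DOHH2 and 1.22 in DAUDI. ZNF529 had 0.370 and 0.143 FPKM in resistant DOHH2 against 2.77 FPKM in the DOHH2 library labelled WT, and 6.99 and 6.32 FPKM in resistant DAUDI against 2.28 FPKM in the DAUDI library labelled WT. For ZNF329 the mean difference was -1.20 in DOHH2, where both resistant libraries were listed at 0 against 1.30 FPKM in the library labelled WT. In DAUDI it was 1.72, with 4.28 and 2.85 FPKM in resistant cells against 0.372 FPKM in the library labelled WT.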

How the results depend on the processing

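No paired analysis was possible because each group has 1 library with no replicate number, other than the fit with drug as a further term, which pairs the lines by drug and gave 10 members higher and 39 lower in resistant DOHH2. Of 130 recomputed counts, 101 stayed within 1.5 times the reported count and 29 did not. Members higher in resistant DOHH2 by limma (21) numbered 7 with no filter, 10 with that drug term and 0 with all 6 libraries in the fit, and were fewer without 1 library. Members lower (55) numbered 27, 0 with all 6 libraries, and 8 to 52 without 1 library. Of 14 members named as present in one line, 6 passed limma without a DOHH2 library and 13 without a DAUDI library, 11 with the highest isoform, 10 with no filter and 0 with all 6 libraries; none of their 157 unchanged and 39 weaker results reversed. With presence at 3 FPKM the classes shrank to 0 (DOHH2 only, from 2), 3 (DAUDI only, from 15), 11 (all 4 resistant, from 40), 2 and 1 (DAUDI with and without WT, from 7 and 7) and 28 (all 6, from 67). With absence under 0.3 FPKM, DAUDI with WT numbered 11, and without 1 library DOHH2 only ranged from 2 to 4. At a pseudocount of 5, members higher than WT numbered 9 in DOHH2 and 8 in DAUDI, and lower in DAUDI 22. Of all genes 754, 744 and 855 fell in these counts. Between the drugs, 9 members differed in DOHH2 and 3 in DAUDI at a pseudocount of 0.1, and 2 and 2 with the highest isoform. Between the libraries labelled WT 3 did at 0.1. The shares of all genes for these 3 comparisons at these settings are not given here. A gap of 2 Mb gave 6 clusters in place of 10. Rescaling by the median of ratios moved the median of all genes for ibrutinib-resistant DAUDI against WT to -0.03, from 0.18. The causes were not tested. Low members near 1 FPKM limit what can be called present, and depth is known only relative to another library.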

Other observations

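The 8 zinc finger genes of chromosome 19 that carry other symbols (ZFP, ZSCAN, ZKSCAN, ZIM and ZIK) were not members. Of these, 1 was higher and 3 were lower in resistant DOHH2 than in resistant DAUDI by limma, where 13.1% and 14.2% of all genes were. Present in resistant DAUDI and absent in resistant DOHH2 were 3, and 1 was the reverse, where 3.05% and 1.43% of all genes were. Against the libraries labelled WT 1 was higher and 5 lower in DOHH2, where 13.4% and 14.6% of all genes were. In DAUDI 1 was higher and 3 lower, where 13.7% and 13.2% of all genes were. With 8 genes these shares are coarse.

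Among erythroid genes, HBB had 3.39 FPKM and HBA1 2.05 FPKM in the DOHH2 library labelled WT, against 0.0720 and 0 FPKM in the DAUDI library labelled WT, and at most 0.0691 FPKM in any resistant library.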
